A study of Homo sapiens with 9 samples.

Results

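Classical cadherins and the catenins that bind them were followed in HEK293 cells after stable knock down of SmcHD1. The genes were CDH1, CDH2, CDH4, CDH6 and CDH11 for the cadherins, and CTNNA1, CTNNA2, CTNNB1, CTNND1 and CTNND2 for the catenins. They were found through the RefSeq accession of each array probe, and every probe of these 10 genes was kept, which gave 14 of the 42405 probes and 10 of the 19483 named genes on the array. The 10 genes were chosen by their family, with earlier results of the same 9 arrays and the differences between the 3 groups in view, so those differences are given as a description, with standard errors and intervals but no p-values.

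HEK293 is a line derived from human embryonic kidney. Cells of every group carried a stably integrated retroviral shRNA construct, were selected with puromycin after infection and grew in the same serum-supplemented medium. The sources name no other treatment. The CTL group carried the control shRNA NC5, KD3 carried shRNA 3 and KD4 carried shRNA 4, both directed against SmcHD1, an SMC-hinge protein that maintains silencing on the inactive X chromosome and at several autosomal gene clusters. Each group was measured on 3 Agilent one-color arrays, 9 in all. The sources used here call them biological triplicates but do not say whether they came from separate infections, so the errors measure the spread between these samples.

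Classical cadherins are transmembrane proteins that hold neighbouring cells together by binding the same kind of cadherin on the next cell in a calcium-dependent way. Inside the cell, β-catenin binds the cadherin tail and α-catenin links that complex to actin, while p120-catenin and its relative δ-catenin bind closer to the membrane and keep the cadherin at the surface. E-cadherin is the cadherin of most epithelia, N-cadherin that of neural and mesenchymal cells, and β-catenin is also the effector of Wnt signalling in the nucleus.

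The 3 groups differ by their hairpin, so the hairpins are shown first. They are written 5′ to 3′ as the labels give them, and the capitals mark the 9 bases at positions 30 to 38 that all 3 have in common, the longest stretch they share at the same place.

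CTL: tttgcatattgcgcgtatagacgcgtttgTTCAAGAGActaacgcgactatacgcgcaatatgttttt

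KD3: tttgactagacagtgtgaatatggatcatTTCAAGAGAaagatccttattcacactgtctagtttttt

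KD4: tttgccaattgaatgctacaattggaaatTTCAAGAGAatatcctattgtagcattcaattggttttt

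Values are log2 signals, quantile normalized over the 9 arrays, with the repeated spots of a probe averaged, so a difference of 1 is a doubling. Median processed signals of the arrays ran from 119.6 to 181.4, 75.1% to 79.8% of probes were well above background, and no spot was saturated. Testing needed signals well above background on every one of the 3 arrays in at least 1 group, which 32276 probes had. A probe was called when the limma adjusted p was under 0.05 over all tested probes and the fold was at least 1.8, a log2 difference of 0.85. The 3 SMCHD1 probes were all called lower, by log2 differences of -1.03 to -0.97 in KD3 and -1.54 to -1.51 in KD4. Precision is limited by the 3 arrays per group.

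Of the 14 cadherin and catenin probes, 13 probes of 9 genes were tested. The exception was CTNNA2, whose probe was never well above background on the 9 arrays. In KD3, 3 of the 9 tested genes were called, where 4.93% of all tested genes were called. They were 1 gene higher, CTNND2, where 1.43% of all were higher, and 2 lower, CDH1 and CDH4, where 3.5% were lower. In KD4, 2 of the 9 were called, where 6.39% of all tested genes were called. They were CTNND2, higher, where 1.68% of all were higher, and CDH1, lower, where 4.71% were lower. Both genes, 2 of the 9, were thus called with the same sign in both knock-downs, as were 3.67% of all tested genes. By direction that was 1 gene higher beside 0.989% of all, and 1 gene lower beside 2.69%. The genes were chosen with these contrasts known, so nothing is read from the shares.

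**Figure D1:**
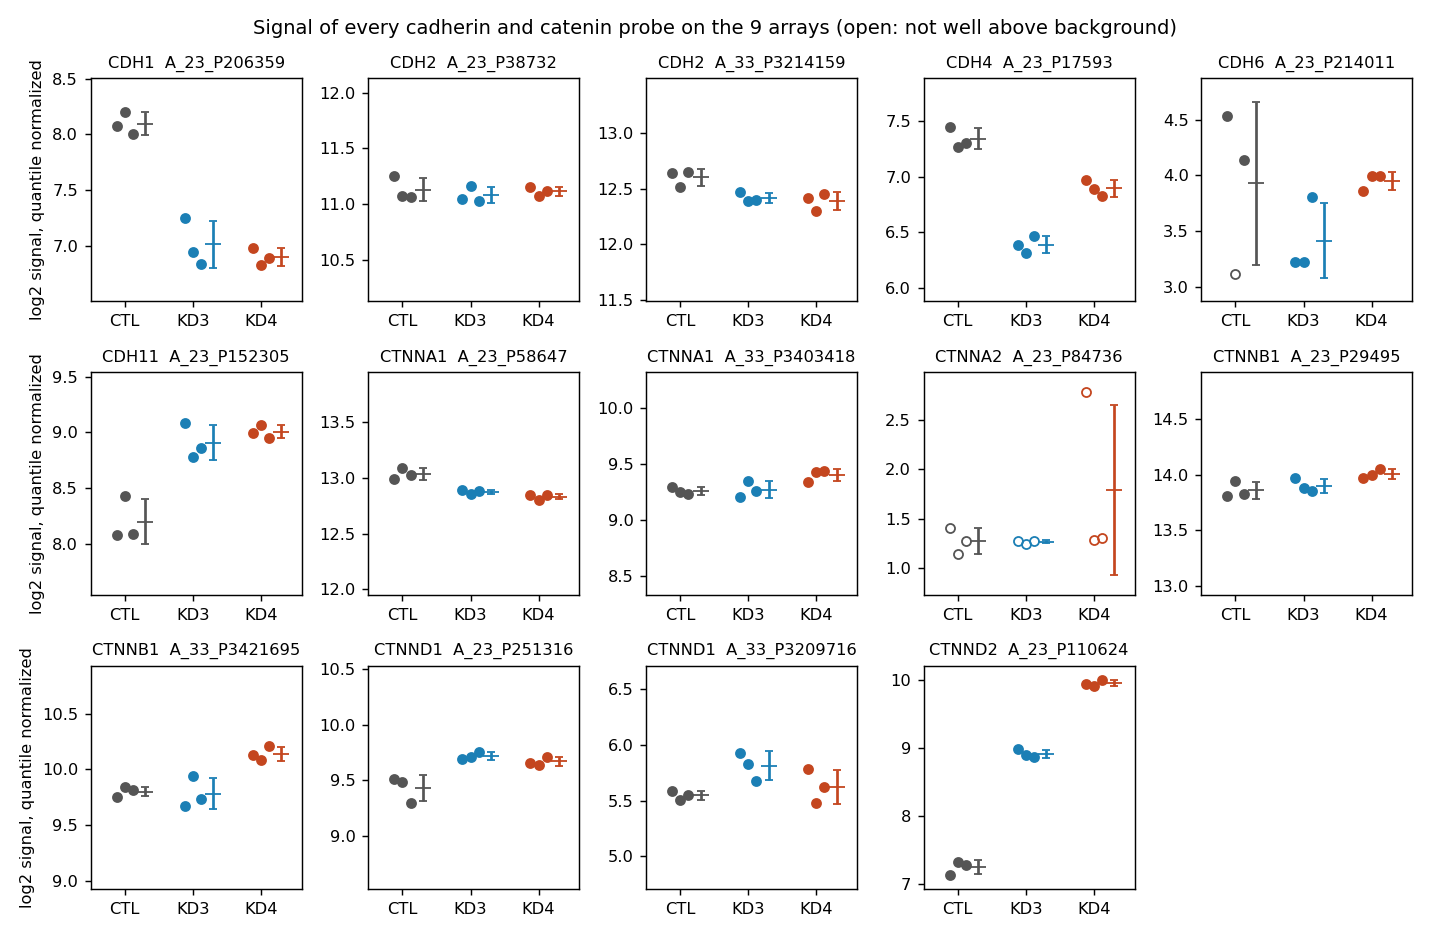
Each panel plots the normalized log2 signal of one probe on the 9 arrays by group, with its own vertical scale. Points are arrays, open points are arrays on which the probe was not well above background, and the bars show the mean ± SD of 3 arrays. The CTNND2 groups stand in the order CTL, KD3, KD4 without overlap, CDH1 and CDH4 sit higher in CTL than in either knock-down, and most other panels span less than 1 log2 unit.

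CDH1 encodes E-cadherin and lies on chromosome 16. Its only probe, A_23_P206359, read 8.08, 8.20 and 8.00 in CTL, 7.25, 6.95 and 6.84 in KD3, and 6.98, 6.82 and 6.89 in KD4. All 6 knock-down arrays were below all 3 CTL arrays, while KD3 and KD4 overlapped. Over 3 arrays each, CTL had a mean of 8.09 ± 0.101 (SD, n = 3), KD3 of 7.01 ± 0.213 (SD, n = 3) and KD4 of 6.90 ± 0.0801 (SD, n = 3). The log2 difference from CTL was -1.08 in KD3 (standard error 0.113, 95% interval -1.34 to -0.83) and -1.20 in KD4 (standard error 0.113, 95% interval -1.45 to -0.94). CDH1 fell to 47.2% of the CTL signal in KD3 and to 43.7% in KD4. In RNA of a whole culture, fewer cells with the transcript and less transcript per cell cannot be told apart.

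The CDH1 probe is printed 10 times on each array, which allows a look at the spread inside an array. The SD between its spots was 0.0670 to 0.126 on the 9 arrays. Single spots ran from 7.84 to 8.41 in CTL, from 6.73 to 7.40 in KD3 and from 6.65 to 7.10 in KD4. No spot of a knock-down array reached the dimmest CTL spot. The CDH1 difference was also present on each slide, at -1.16 and -1.03 for KD3 and at -1.25 and -1.09 for KD4. Both slides held arrays of all 3 groups, but only 1 or 2 of each group. The differences by slide, here and below, are thus splits of the same 9 arrays. With normexp background correction the KD3 difference was -0.81, under the fold threshold, and the methods' t-test (Benjamini-Hochberg) did not call it either, while CDH1 in KD4 was called under all 22 alternatives.

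CDH4 encodes R-cadherin, first described in retina and also made in kidney and brain, and lies on chromosome 20. Its probe A_23_P17593 read 7.45, 7.27 and 7.30 in CTL, 6.38, 6.32 and 6.47 in KD3, and 6.97, 6.89 and 6.82 in KD4. The 3 groups did not overlap, with CTL highest, KD4 in the middle and KD3 lowest. The log2 difference from CTL was -0.95 in KD3 (standard error 0.0792, 95% interval -1.13 to -0.77) and -0.44 in KD4 (standard error 0.0792, 95% interval -0.62 to -0.26). These are 51.8% and 73.5% of the CTL signal, and only the KD3 value was called. The KD3 call was lost with normexp background correction, where the difference was -0.65. Slide by slide the CDH4 differences were -0.97 and -1.02 for KD3, against -0.43 and -0.48 for KD4.

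CDH11 encodes OB-cadherin, a cadherin of osteoblasts and mesenchymal cells, and lies on chromosome 16 as CDH1 does. Probe A_23_P152305 read 8.08, 8.43 and 8.09 in CTL, 9.08, 8.78 and 8.86 in KD3, and 8.99, 9.07 and 8.95 in KD4. Every knock-down array was above every CTL array, the opposite side from CDH1, and CTL replicate 2 was the CTL array nearest to the knock-downs. The log2 difference was 0.71 in KD3 (standard error 0.117, 95% interval 0.44 to 0.98) and 0.81 in KD4 (standard error 0.117, 95% interval 0.54 to 1.07). These are folds of 1.63 and 1.75, under the threshold of 1.8, so CDH11 was not called. Without CTL replicate 2 the KD4 difference was 0.92 and CDH11 was called there.

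CDH2 encodes N-cadherin and lies on chromosome 18. Its probe A_23_P38732 had overlapping groups, between 11.07 and 11.25 in CTL, between 11.03 and 11.16 in KD3 and between 11.07 and 11.15 in KD4. The second probe, A_33_P3214159, read 12.64, 12.52 and 12.65 in CTL, 12.47, 12.38 and 12.40 in KD3, and 12.41, 12.30 and 12.45 in KD4, so that all 6 knock-down arrays lay below CTL. For the first probe the log2 difference was -0.05 in KD3 (95% interval -0.22 to 0.13) and -0.01 in KD4 (95% interval -0.19 to 0.16). For the second it was -0.18 in KD3 (95% interval -0.35 to -0.02) and -0.21 in KD4 (95% interval -0.38 to -0.05). Neither CDH2 probe was called, and the intervals of both leave out a 1.8-fold difference in either direction.

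CDH6 encodes K-cadherin, known from the developing kidney tubule, and lies on chromosome 5. Its probe A_23_P214011 was dim and printed only 2 times per array. It read 4.53, 3.11 and 4.14 in CTL, 3.22, 3.22 and 3.80 in KD3, and 3.86, 4.00 and 3.99 in KD4. The CTL arrays spread over a wider range than the knock-down arrays, and CTL replicate 2 was not well above background. On KD3 replicate 1 the 2 spots read 1.97 and 4.47. The log2 difference was -0.52 in KD3 (95% interval -1.26 to 0.22) and 0.02 in KD4 (95% interval -0.72 to 0.76), and neither was called. CDH6 in KD3 was called only without CTL replicate 2, at -0.92, and the probe was not tested under a filter asking for more than 50% of its spots above background.

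Among the catenins, CTNND2 stood farthest from CTL. CTNND2 encodes δ-catenin, a relative of p120-catenin made mainly in neurons, where it sits at synapses and binds N-cadherin, and the gene lies on chromosome 5. Its probe A_23_P110624 read 7.13, 7.33 and 7.29 in CTL, 8.98, 8.90 and 8.86 in KD3, and 9.93, 9.91 and 10.00 in KD4. The 3 groups did not overlap: the lowest KD3 array was 1.54 above the highest CTL array, and the lowest KD4 array was 0.93 above the highest KD3 array. CTL had a mean of 7.25 ± 0.102 (SD, n = 3), KD3 of 8.91 ± 0.0579 (SD, n = 3) and KD4 of 9.95 ± 0.0460 (SD, n = 3).

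CTNND2 rose by 1.66 in KD3 (standard error 0.0747, 95% interval 1.49 to 1.83) and by 2.70 in KD4 (standard error 0.0747, 95% interval 2.53 to 2.87), on the log2 scale. These are folds of 3.17 and 6.49. Ordered by log2 difference over the 32276 tested probes, CTNND2 was at place 72 from the highest in KD3 and at place 36 in KD4. It was called against CTL under all 22 alternatives in both knock-downs, with differences of 1.33 to 1.70 in KD3 and of 2.28 to 2.74 in KD4. On the separate slides CTNND2 differed from CTL by 1.59 and 1.79 for KD3, and by 2.65 and 2.80 for KD4.

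The CTNND2 probe also has 10 spots on each array. Spots ran from 6.92 to 7.40 in CTL, from 8.76 to 9.04 in KD3 and from 9.77 to 10.08 in KD4, and the SD between spots of an array was 0.0514 to 0.107. No spot of one group fell within the range of another.

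**Figure D2:**
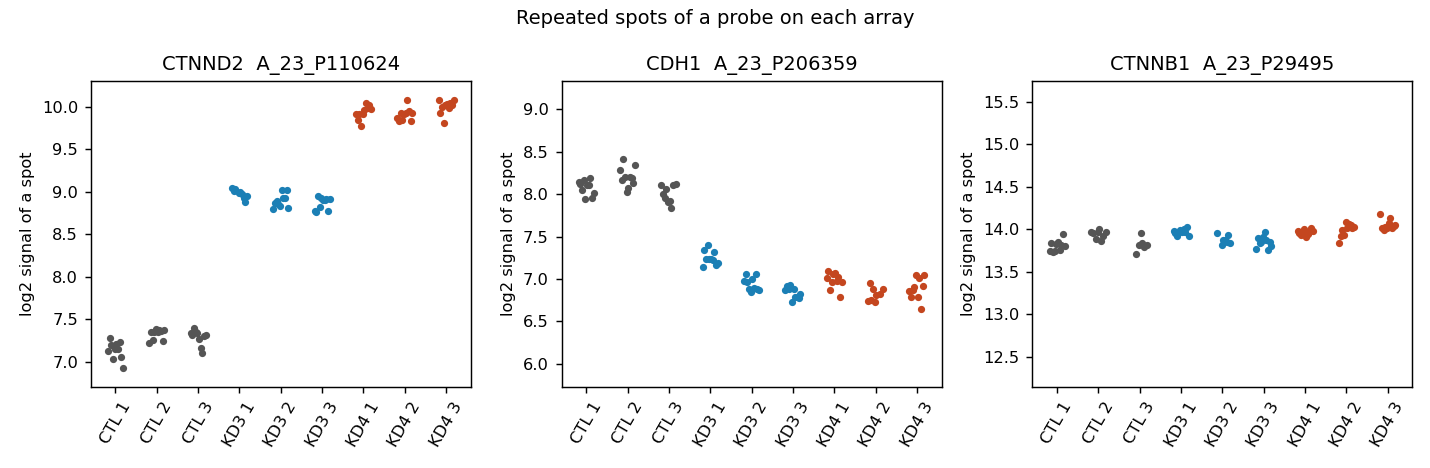
The log2 signal of each spot is plotted for the 3 probes that are printed 10 times on an array, with the 9 arrays along the horizontal axis and the same 3.6-unit span on each vertical axis. CTNND2 spots form 3 separate levels from 6.92 to 7.40, 8.76 to 9.04 and 9.77 to 10.08, CDH1 spots form a CTL level above both knock-downs, and the CTNNB1 spots of the 3 groups overlap.

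Because CTNND2 had the largest differences, its start regions are shown. RefSeq on the build GRCh38.p14 gives 2 windows for the gene, each from 250 bases before to 50 bases after a transcription start, on the minus strand, and the capitals mark CpG dinucleotides. The arrays measured no methylation and do not say from which start the CTNND2 transcript came.

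CTNND2, chr5:11904397-11904696, minus strand: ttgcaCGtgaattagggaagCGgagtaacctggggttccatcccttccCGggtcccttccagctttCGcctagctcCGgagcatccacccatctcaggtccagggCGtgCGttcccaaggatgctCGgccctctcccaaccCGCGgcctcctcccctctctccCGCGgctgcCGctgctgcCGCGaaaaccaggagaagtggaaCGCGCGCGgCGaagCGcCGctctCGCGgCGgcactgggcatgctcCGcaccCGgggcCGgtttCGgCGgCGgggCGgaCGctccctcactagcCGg

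CTNND2, chr5:11588868-11589167, minus strand: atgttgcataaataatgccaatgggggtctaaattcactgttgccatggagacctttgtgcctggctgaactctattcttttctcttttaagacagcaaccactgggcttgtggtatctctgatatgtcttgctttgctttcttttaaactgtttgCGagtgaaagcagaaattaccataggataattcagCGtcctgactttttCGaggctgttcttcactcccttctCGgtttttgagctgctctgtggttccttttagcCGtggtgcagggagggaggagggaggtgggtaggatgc

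The first CTNND2 window holds 34 CpG and is 69.3% G or C, and 15.6% of the 35116 windows in the table have at least as many CpG. The second holds 5 CpG and is 45.7% G or C, and 70.4% of windows have at least as many. The median window has 14 CpG. The table had 15 windows for 6 of the 10 genes. The letters CAGGTG, the E-box bound by Snail and ZEB repressors, searched on both strands, were in 1 of these 15 windows, a CDH4 window, and in 20.6% of all windows. No window of CDH1, CDH6, CDH11 or CTNND1 was searched.

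CTNND1 encodes p120-catenin, which keeps cadherins from being taken up and degraded, and lies on chromosome 11. Probe A_23_P251316 read 9.52, 9.49 and 9.30 in CTL, 9.69, 9.71 and 9.76 in KD3, and 9.66, 9.64 and 9.71 in KD4. All knock-down arrays were above CTL, by mean log2 differences of 0.29 in KD3 (95% interval 0.11 to 0.46) and 0.24 in KD4 (95% interval 0.06 to 0.41). The dimmer probe, A_33_P3209716, differed by 0.27 in KD3 (95% interval 0.04 to 0.49) and by 0.08 in KD4 (95% interval -0.14 to 0.30), and its KD4 arrays overlapped with CTL. Neither CTNND1 probe was called. The larger CTNND1 fold was 1.22, against 3.17 and 6.49 for its relative CTNND2.

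CTNNB1 encodes β-catenin and lies on chromosome 3. Its probe A_23_P29495, with 10 spots, lay between 13.81 and 13.94 in CTL, between 13.85 and 13.97 in KD3 and between 13.97 and 14.05 in KD4. The second probe, A_33_P3421695, read 9.75, 9.84 and 9.81 in CTL, 9.67, 9.94 and 9.74 in KD3, and 10.12, 10.09 and 10.21 in KD4. On both probes the KD4 arrays were above CTL while the KD3 arrays overlapped with CTL. For KD4 the log2 difference was 0.15 on the first probe (95% interval -0.01 to 0.31) and 0.34 on the second (95% interval 0.15 to 0.53). For KD3 it was 0.04 (95% interval -0.12 to 0.20) and -0.02 (95% interval -0.21 to 0.17), and CTNNB1 was called in neither knock-down.

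CTNNA1 encodes αE-catenin, the α-catenin of epithelia, and lies on chromosome 5. Its brighter probe, A_23_P58647, read 12.99, 13.09 and 13.03 in CTL, 12.89, 12.86 and 12.88 in KD3, and 12.85, 12.80 and 12.84 in KD4, below CTL on all 6 knock-down arrays. The log2 difference was -0.16 in KD3 (95% interval -0.30 to -0.02) and -0.20 in KD4 (95% interval -0.34 to -0.07). On the other CTNNA1 probe, A_33_P3403418, it was 0.01 in KD3 (95% interval -0.14 to 0.17) and 0.14 in KD4 (95% interval -0.01 to 0.30), so the probes of CTNNA1 had opposite signs in KD4. Neither was called.

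CTNNA2 encodes αN-catenin, the α-catenin of neurons, and lies on chromosome 2. Probe A_23_P84736 read between 1.14 and 1.41 on all arrays but KD4 replicate 1, where it read 2.79. It stayed under the background criterion on each of the 9 arrays, so CTNNA2 has only an upper bound in these cells and no fold is given.

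**Figure D3:**
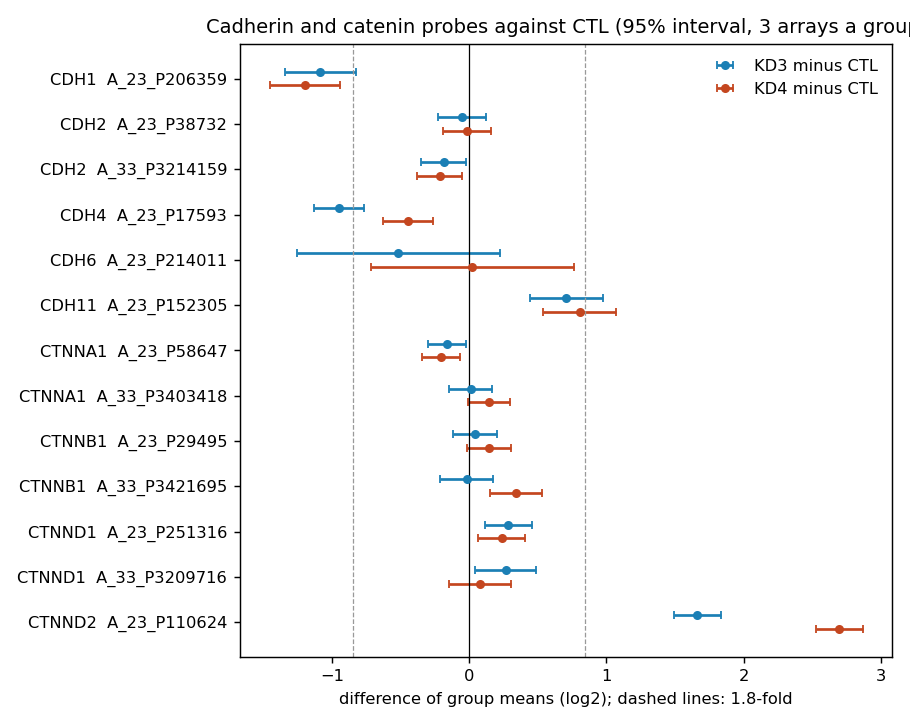
Points are the mean log2 differences of the 13 tested cadherin and catenin probes from CTL, KD3 in blue and KD4 in orange, with 95% intervals from the fit over 3 arrays per group, and dashed lines mark a fold of 1.8. CTNND2 lies to the right of the line in both knock-downs and CDH1 to the left, CDH4 is past the line only in KD3, and CDH6 has the widest intervals.

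Taken by counts of separated arrays, 4 of the 13 tested probes were higher on every KD3 array than on any CTL array, where 18.5% of all tested probes were, and 4 were lower, where 17.5% were. In KD4, 6 were higher on every array, where 23.1% of all tested probes were, and 4 were lower, where 21.8% were. The median log2 difference of the 13 probes was -0.02 in KD3 and 0.08 in KD4, beside 0.01 and 0.04 over all tested probes. Their median absolute difference was 0.266 in KD3 and 0.213 in KD4, beside 0.176 and 0.217 over all tested probes. By adjusted p alone, with no fold threshold, 5 of the 13 probes passed in KD3, where 20% of all tested probes did, and 7 in KD4, where 28.3% did. CTNND2, CDH1, CDH4 and CDH11 had the largest differences, apart from the imprecise CDH6.

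**Figure D4:**
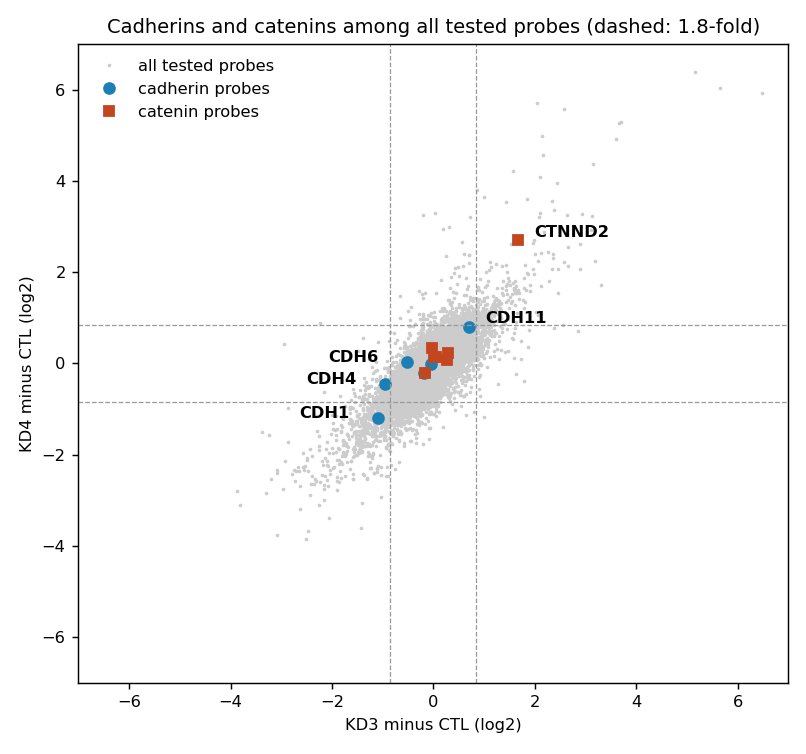
Each grey point is one of the 32276 tested probes, placed by its log2 difference from CTL in KD3 (horizontal) and in KD4 (vertical), with cadherin probes as blue circles, catenin probes as orange squares and dashed lines at a fold of 1.8. Both axes use the same CTL arrays, so the slope of the cloud is no result. CTNND2 lies far to the upper right at 1.66 and 2.70, CDH1 to the lower left at -1.08 and -1.20, CDH4 left of the line for KD3 at -0.95, and the remaining probes lie between the lines.

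KD4 was then compared with KD3 directly. CTNND2 was 1.04 higher in KD4 (standard error 0.0747, 95% interval 0.87 to 1.21), a fold of 2.05, and was the 1 called gene of the 9, where 0.653% of all tested genes were called and 0.317% were called higher. The Benjamini-Hochberg adjusted form of the methods' t-test called 0 probes of the whole array in this comparison, CTNND2 included. CDH4 was 0.51 higher in KD4 (standard error 0.0792, 95% interval 0.32 to 0.69), a fold of 1.42 and not called. For CDH1 the difference between the knock-downs was -0.11 (95% interval -0.37 to 0.14) and for CDH11 it was 0.10 (95% interval -0.17 to 0.36). The second CTNNB1 probe was 0.36 higher in KD4 (95% interval 0.17 to 0.55). In this comparison 4 of the 13 probes were higher on every KD4 array, where 14.1% of all tested probes were, and 1 was lower, where 14.9% were. By adjusted p alone 2 of the 13 passed, where 2.47% of all tested probes did.

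The genes whose pair of differences from CTL lay closest to those of CTNND2 and CDH1 were looked up among 15379 genes well above background on all 9 arrays, by the straight distance in the plane of the KD3 and KD4 differences. For CTNND2 they were PCDHB2, a protocadherin of the β cluster, at a distance of 0.0607 with differences of 1.60 and 2.69, then PCDHB11 at 0.585 and NEFH at 0.618. For CDH1 they were ESPNL at a distance of 0.00862 with differences of -1.08 and -1.20, GRHL3, a Grainyhead-like transcription factor of epithelia, at 0.0286, and GDF1 at 0.0352. These distances rest on 9 arrays with shared CTL arrays and are a description.

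Genes that work with cadherins and catenins were read from the same fit in 11 lists of 121 genes, of which 105 were tested. The lists were chosen with earlier results of these arrays known, so adjusted p-values printed for their genes are a description. In KD3, 5 of the 105 were called, 1 higher and 4 lower, or 4.76% beside 4.93% of all tested genes. In KD4, 6 were called, 2 higher and 4 lower, or 5.71% beside 6.39%. The adjusted form of the methods' t-test called 3 of the 105 in KD3 and 4 in KD4. Between KD4 and KD3 limma called 0 of the 105, with 30 at an unadjusted p under 0.05 and 0 by the adjusted form of the methods' t-test. At an unadjusted p under 0.05 were 55 of the 105 in KD3 and 61 in KD4. The share of all tested genes at that level is not given, so nothing is read from these counts, here or list by list. By adjusted p alone, 20% of all tested probes passed in KD3, 28.3% in KD4 and 2.47% between KD4 and KD3. These are shares of probes, not of genes.

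Other junction genes are given list by list, where 4.93% of all tested genes were called in KD3 and 6.39% in KD4. With so few genes in a list, nothing is read from the counts of calls, here or in the lists below. Of 10 tested further classical cadherins, limma called 0 in either knock-down, with 5 in KD3 and 4 in KD4 at an unadjusted p under 0.05. P-cadherin, CDH3, which lies beside CDH1 in the genome, was picked out after the values were seen. It came nearest to a call in KD3, at -0.82 and a fold of 1.77, and was -0.32 in KD4. Of 6 tested catenin-family genes, limma called 0 in KD3 (4 at an unadjusted p under 0.05) and 1 in KD4. That gene was JUP, plakoglobin, the close relative of β-catenin that also serves desmosomes. JUP read 11.69, 11.74 and 11.77 in CTL, 11.92, 12.08 and 12.23 in KD3, and 12.59, 12.70 and 12.50 in KD4, with no overlap between the groups. JUP rose by 0.87 in KD4 (standard error 0.0933, limma adjusted p = 0.000367), while the KD3 difference of 0.34 (limma adjusted p = 0.034) was under the fold threshold.

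Desmosomal cadherins and desmoplakin had 5 tested genes and 0 limma calls, with 2 in KD3 and 3 in KD4 at an unadjusted p under 0.05. Desmocollin 3, DSC3, also picked out after the values were seen, came nearest to a call. It was at -0.84 in KD4 on its probe A_24_P344416, a fold of 1.79, and at -0.63 on its other probe. Nectins and actin linkers had 15 tested genes and 0 limma calls, with 5 and 7 at that level. Enzymes of cadherin processing and turnover had 11 tested genes and 0 limma calls, with 7 and 7 at that level, and partners of p120-catenin had 7 tested genes and 0 limma calls, with 5 and 4. The Benjamini-Hochberg adjusted form of the methods' t-test also called 0 genes of these 4 lists and of the further classical cadherins. ZBTB33, the Kaiso repressor that binds p120-catenin, was 0.46 higher in KD3 (limma adjusted p = 0.00912) and 0.39 higher in KD4 (limma adjusted p = 0.0146), under the fold threshold in both. VAV2, from the same list but named after its values were seen, was on the other side of CTL. It was at -0.59 in KD3 and -0.51 in KD4, also under the threshold.

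The tested repressors of the CDH1 promoter numbered 8, and 1 was called, KLF8, higher in both knock-downs. KLF8 is a Krüppel-like zinc-finger factor of the X chromosome. Its probe A_23_P217528 read 3.74, 3.43 and 2.38 in CTL, the last not well above background, 8.97, 8.77 and 8.76 in KD3, and 9.27, 9.14 and 9.28 in KD4. Since 1 of its 3 CTL readings missed that criterion, the probe entered the test through the knock-down arrays, and the size of its difference rests on CTL signals close to background. The fitted log2 difference was 5.65 in KD3 and 6.04 in KD4, and the adjusted form of the methods' t-test called KLF8 in neither. The other KLF8 probe, A_33_P3335498, had overlapping groups, with 0.41 in KD3 (limma adjusted p = 0.511) and 0.42 in KD4 (limma adjusted p = 0.447), so the KLF8 probes disagreed. The zinc-finger repressors ZEB1, ZEB2, SNAI1 and SNAI2 were not called, with log2 differences between -0.20 and 0.35 in KD3 and between -0.05 and 0.25 in KD4. SNAI2 (narrowly, at least 6.16 against at most 6.14 in CTL) and the ZEB2 probe A_33_P3243832 were above CTL on every knock-down array. The remaining probes of these repressors overlapped with CTL in KD3. Of all tested probes, 18.5% were higher on every KD3 array and 23.1% on every KD4 array. Any part of these genes in the CDH1 difference was not tested.

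Epithelial genes and their activators had 16 tested genes, of which EPCAM and OVOL2 were called lower in both knock-downs. EPCAM, a surface adhesion protein of epithelia, read 9.39, 9.45 and 9.43 in CTL, 8.29, 7.91 and 7.94 in KD3, and 8.29, 8.32 and 8.32 in KD4. It fell by 1.38 in KD3 (limma adjusted p = 7.19e-05) and by 1.12 in KD4 (limma adjusted p = 0.000159). OVOL2, a zinc-finger factor that keeps epithelial identity, fell by 1.50 in KD3 (limma adjusted p = 5.27e-05) and by 2.00 in KD4 (limma adjusted p = 1.05e-05). With the adjusted form of the methods' t-test the KD3 call of EPCAM was lost. The other 14 tested genes of the list were not called, and the median log2 difference over its probes was -0.06 in KD3 and 0.17 in KD4. By adjusted p alone 7 of the 16 passed in KD3 and 9 in KD4, with 7 and 11 at an unadjusted p under 0.05. These count genes with at least 1 such probe. The share of all tested genes is not given, so nothing is read from these counts. The uncalled genes moved both ways in KD4. On every KD4 array KRT18 and KRT19 were above all CTL arrays, while CLDN1 and CRB3 were below them.

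On the β-catenin side, 1 of 9 tested genes of the destruction complex was called, APC2, a relative of the tumor suppressor APC. APC2 fell by 1.37 in KD3 (limma adjusted p = 2.32e-05) and by 1.42 in KD4 (limma adjusted p = 1.71e-05). Among 9 tested target genes of β-catenin, DKK1, a secreted Wnt antagonist, was the only call, and fell by 1.00 in KD3 (limma adjusted p = 0.00125) and by 1.16 in KD4 (limma adjusted p = 0.000465). With the adjusted form of the methods' t-test the KD4 call of DKK1 was lost. The other 8 targets were not called, and 6 of the 9 in KD3 and 4 in KD4 were at an unadjusted p under 0.05. Among the uncalled targets, CCND1 was above CTL on every knock-down array. AXIN2 was below CTL on every knock-down array on its probe A_23_P148015, but not on its other probe. Nuclear partners of β-catenin gave 0 limma calls among 9 tested genes and 0 by the adjusted form of the methods' t-test. Of these partners, 6 in KD3 and 8 in KD4 were at an unadjusted p under 0.05.

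**Figure D5:**
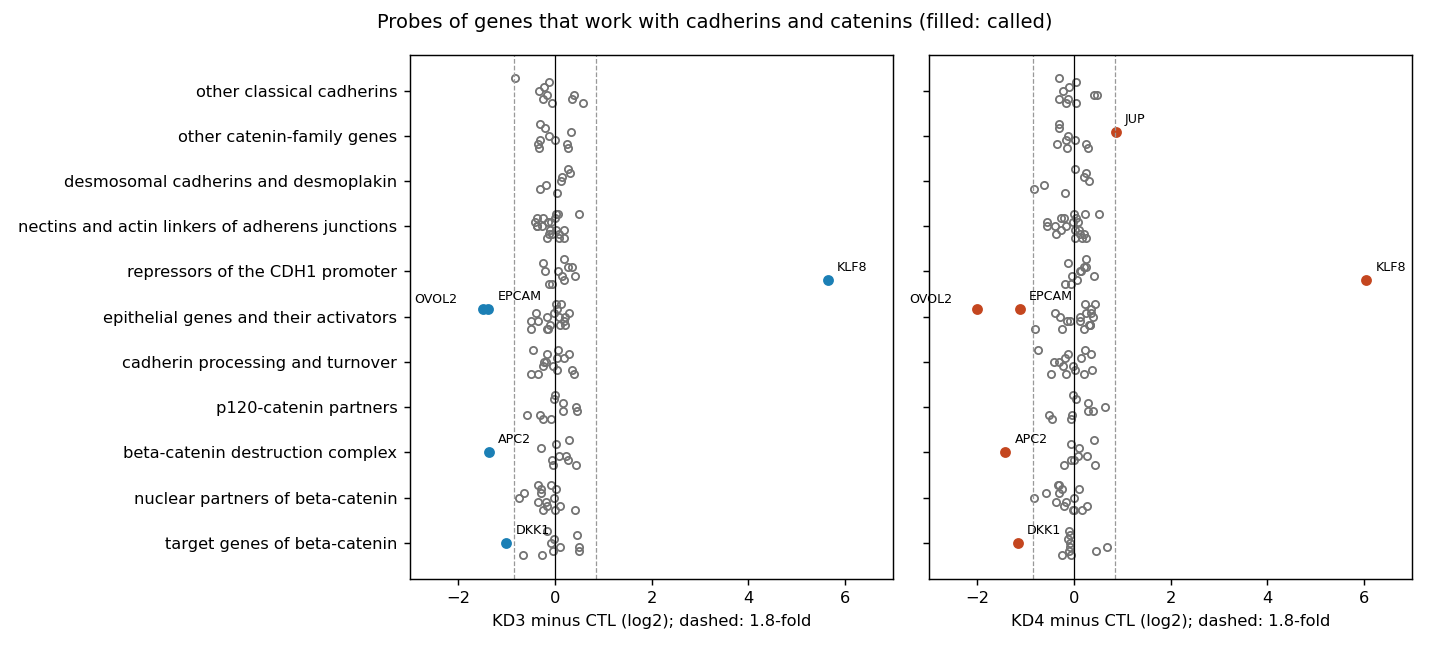
Each point is a tested probe of a gene in one of the 11 lists, placed by its log2 difference from CTL in KD3 (left) and KD4 (right), with called probes filled and named and dashed lines at a fold of 1.8. KLF8, close to background in CTL, lies farthest to the right, EPCAM, OVOL2, APC2 and DKK1 lie left of the line in both panels, JUP is past the line in KD4, and all other probes of these lists are open.

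Markers were read beside these results. All 8 genes of the HEK293 list were well above background on all 9 arrays. The mean log2 signal of its probes was 8.87 to 9.01 on the CTL arrays, 8.33 to 8.44 in KD3 and 8.34 to 8.50 in KD4, with PAX2 (on 1 of its probes) and NEFM called lower. Among markers of differentiated epithelium, OVOL1 was on 0 arrays, EPCAM was called lower, and the mean of the 4 tested probes was 6.18 to 6.29 in CTL, 5.95 to 5.96 in KD3 and 6.13 to 6.33 in KD4. The mean of the 2 tested endothelial probes was 6.35 to 6.44 in CTL, 5.84 to 6.06 in KD3 and 6.02 to 6.11 in KD4, with PECAM1 on 0 arrays. Of these, VWF differed from CTL by -0.82 and -0.69, under the fold threshold, and CDH5 by -0.06 and 0.04. COL1A2, THY1 and HBB were on 0 arrays, while CD3E and COL1A1 were above background on all 9. So were some probes of PTPRC and DCN, but not all probes of these genes. The part of these markers in the CDH1 and CTNND2 differences was not tested.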

How the data were processed

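Gene expression was measured on 9 one-color arrays, and a scanner file for each array holds the intensity of every spot. In that deposited intensity, from Agilent Feature Extraction 10.10.1.1, the authors' scanner software had subtracted the background and detrended the array. A second deposited table, of log2 values, had been quantile normalized by the authors in GeneSpring. Its columns all had a median of 6.524, it differed from the values computed here by a median of -0.0755, and it served as an alternative. Sources used here write quintile normalization, which was read as quantile.

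Control spots and spots flagged as outliers (260 to 634 of 58717 per array) were left out, log2 processed signals were quantile normalized, spots of a probe were averaged, and 21 probes lacking a value on an array were dropped. A probe counted as well above background on an array when at least 50% of its spots did. Probes were named through RefSeq accessions (25422 of 42405) and a RefSeq gene table (GRCh38.p14). A gene was counted if at least 1 probe was called, and probes of a gene were never averaged.

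Groups were compared with limma 3.58.1 in R 4.3.3 (lmFit, eBayes, group means, all 9 arrays in a single fit), with Benjamini-Hochberg adjustment over the 32276 tested probes. Intervals are at 95%. The fit was also run on simulated independent noise with equal shifts in both knock-downs, all larger than the fold threshold. That run does not bear on differences near the threshold or between KD4 and KD3. The members and lists were chosen with earlier results of these data known. Named were all 10 genes with every probe, each listed gene with a called probe, ZBTB33, KLF8, ZEB1, ZEB2, SNAI1, SNAI2, SMCHD1, and the 3 nearest genes of members called in both knock-downs. CDH3, DSC3, VAV2, KRT18, CLDN1, CRB3, CCND1, AXIN2 and the marker genes were named after their values were seen. Tried as 22 alternatives were 75th-percentile scaling, normexp with an offset of 50, the deposited log2 values, other filters for dim signals, the t-test of the methods (adjusted and unadjusted), separate fits, the brightest probe only, no fold threshold, a block for slide or replicate number, and leaving out each array. The filter on more than 50% of the spots and the slide-by-slide differences were added after the data were seen. Measurements in other cells, immunoblots and methylation assays were not analysed here.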

Additional observations from a re-analysis of the deposited data

Results flagged for a closer look

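In the direct comparison of KD4 with KD3, the probes of CTNND2 and CDH4 were the 2 of 13 tested that passed by adjusted p alone. Of all tested probes 2.47% did. The values of both genes also did not overlap between the 2 knock-downs. In all, 4 of the 13 probes were higher on every KD4 array, where 14.1% of all tested probes were, and 1 was lower, where 14.9% were. Both genes were chosen with these values known, so this is a description. CTNND2 was higher in KD4 by a log2 difference of 1.036 (standard error 0.0747), with mean log2 signals of 7.25 in CTL, 8.91 in KD3 and 9.95 in KD4, and both knock-downs lay above CTL. CDH4 was higher in KD4 by 0.5054 (standard error 0.0792), with mean log2 signals of 7.34 in CTL, 6.39 in KD3 and 6.89 in KD4, and both knock-downs lay below CTL. The CDH4 difference was a fold of 1.42, under the threshold of 1.8, and was not called. SMCHD1 itself was lower in KD4 than in KD3, by -0.56 to -0.51 over its 3 probes, and its part in the CTNND2 and CDH4 differences was not tested.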

How the results depend on the processing

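Of 840 differences of cadherin and catenin probes recomputed under 22 alternatives, 826 kept their call, 14 did not, and 0 called differences changed sign. The genes called among the 9 tested numbered 3 in KD3, 2 in KD4 and 1 between KD4 and KD3. With normexp the KD3 count was 1, and with the adjusted form of the methods' t-test the count between KD4 and KD3 was 0, against 1 without adjustment. With no fold threshold the counts were 5, 7 and 2. Leaving out 1 array at a time gave 3 to 4, 2 to 3 and 1 to 1, and the higher counts came without CTL replicate 2.

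Over the whole array, 1072 probes were called in KD3, 1486 in KD4 and 143 between KD4 and KD3. With normexp these were 389, 502 and 37, with the t-test of the methods (Benjamini-Hochberg) 259, 585 and 0 (199 between KD4 and KD3 without adjustment), and with no fold threshold 6459, 9138 and 797. Leaving out 1 array gave 993 to 1113, 1370 to 1577 and 110 to 150. Scaling to the 75th percentile turned the 66 higher and 77 lower probes between KD4 and KD3 into 114 and 44. The cause of these changes was not tested.

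Deviations of arrays with the same replicate number were weakly correlated (r from -0.0775 to 0.143, over 0.1 in 3 of 9 pairs). For CTL with KD4, r was 0.128, 0.143 and 0.0744 for the same number and -0.112 to -0.0201 for different numbers. For CTL with KD3, it was -0.0775 to -0.00872 for the same number. The deviations are from the group mean and cancel out over the arrays of a group. Positive values for the same number therefore bring negative ones for different numbers, and nothing is read from that contrast. With 3 arrays per group these values do not settle whether the numbers pair the samples. With the replicate number as a block, 1065, 1496 and 114 probes and 3, 2 and 1 of the 9 genes were called. With 3 arrays per group, CDH6 near background had an interval about its KD3 difference from -1.26 to 0.22, too wide to place it.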
